A study of Schizosaccharomyces pombe with 6 samples.

Results

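The contacts of fission yeast (*Schizosaccharomyces pombe*) chromosomes in cells arrested in G1 were compared with those in cells arrested in G2. Contacts were captured by genome conformation capture (GCC), in which cross-linked chromatin is cut with AseI, ligated and sequenced, and a count is a read pair that joins 2 AseI fragments. The G1 samples were 2 biological replicates of strain MY291, which carries cdc10-129, and the G2 samples were 2 biological replicates of strain MY284, which carries cdc25-22. Both strains are h- and carry the auxotrophic marker that the study's methods write as lue1, and all cultures were held at 36°C for 4 h. Each phase came from 1 mutant strain, so phase, mutation and library cannot be told apart, and the heat shift was common to both groups. Both replicates of a phase were pooled in 1 deposited table, so there was no spread between replicates and no test, and 95% intervals are exact and cover counting error only. Another pool of 2 samples, arrested in M phase by nuc2-663 (strain MY286), is given beside some values, and G1 and G2 made up 4 of the 6 samples of the series.

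Each pair of nuclear, non-adjacent fragments was used 1 time, and pairs with an end in the rDNA arrays at the ends of chromosome III were dropped. This left 1207616 counts in 46227 pairs for G1 and 1387785 counts in 41456 pairs for G2, which together held 77278 of the 161355 fragment pairs of the whole series. The dropped rDNA pairs held 41.3% of the nuclear non-adjacent counts in G1 and 36.8% in G2. Counts were scaled to CPM, the counts of a pair for every 1000000 counts of the kept pairs, and every ratio below is G2 over G1 of these scaled counts. Of the 9445 fragments outside the rDNA, 551 had no count in either phase, 8124 had 1 to 49 counts over both, and 770 had at least 50 and were read for differences. A fragment, pair or bin pair was called when its scaled counts differed at least 2-fold between the phases.

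Cdc10 is a subunit of MBF, the transcription factor complex that switches on genes for the start of S phase, and cells without its function stop before DNA replication. Cdc25 is the phosphatase that removes the inhibitory phosphate from Cdc2, the cyclin-dependent kinase that drives mitosis, and cells without it stop in G2 with replicated chromosomes. During interphase the fission yeast centromeres gather at the spindle pole body, telomeres lie at the nuclear envelope, and Tf2 retrotransposons and solitary long terminal repeats (LTRs) are spread over the arms. Each centromere has a unique core flanked by inverted imr repeats and by dg and dh repeats, which are shared between the 3 centromeres.

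Most counts joined fragments that hold the same sequence. Pairs in which a stretch of 50 bp occurs in both fragments held 95.8% of the counts in G1 and 96.3% in G2. Sequences are therefore shown for the pairs on which the comparison turns most, in each case the start of the longest stretch that the 2 fragments share. Lower case letters are the bases just before it, where the copies differ at the last base, and capitals mark the first 50 bases of the shared stretch. The sequences were read from the RefSeq genome (ASM294v3) at places where the AseI ends of the deposited fragments match it without a shift.
gpd3, chromosome II 579297-579356, plus strand, 203 bp shared: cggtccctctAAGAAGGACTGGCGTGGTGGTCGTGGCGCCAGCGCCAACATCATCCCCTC
tdh1, chromosome II 2808203-2808262, plus strand: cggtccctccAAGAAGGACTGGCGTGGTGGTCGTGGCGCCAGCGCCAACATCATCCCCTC
eft201, chromosome I 2907911-2907970, plus strand, 587 bp shared: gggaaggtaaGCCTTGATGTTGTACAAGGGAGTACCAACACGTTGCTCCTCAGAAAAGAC
eft202, chromosome III 539585-539644, minus strand: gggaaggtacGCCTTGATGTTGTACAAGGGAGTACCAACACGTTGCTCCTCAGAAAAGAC
tef103, chromosome II 626742-626801, plus strand, 218 bp shared: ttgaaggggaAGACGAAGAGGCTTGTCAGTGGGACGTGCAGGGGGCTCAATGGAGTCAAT
tef101, chromosome III 268733-268792, plus strand: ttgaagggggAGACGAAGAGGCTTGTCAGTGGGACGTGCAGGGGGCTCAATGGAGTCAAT
LTR fragment, chromosome II 2163693-2163752, plus strand, 109 bp shared: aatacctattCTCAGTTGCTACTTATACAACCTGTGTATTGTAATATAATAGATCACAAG
LTR fragment, chromosome II 2426046-2426105, minus strand: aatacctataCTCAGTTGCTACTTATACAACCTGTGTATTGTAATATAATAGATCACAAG
Centromere 3 repeat, chromosome III 1085178-1085237, plus strand, 1128 bp shared: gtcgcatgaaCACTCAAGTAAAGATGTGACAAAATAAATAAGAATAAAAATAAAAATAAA
Centromere 3 repeat, chromosome III 1113710-1113769, minus strand: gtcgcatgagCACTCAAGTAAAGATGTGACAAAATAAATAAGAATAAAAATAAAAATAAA
A read that lies wholly within such a stretch does not say which copy it came from, and how much this moved the counts was not tested. There were 19 sets of fragments that are identical over their whole length among those with at least 50 counts and a length above 200 bp, 63 fragments in all, and within a set the G2 over G1 ratios differed by a median of 1.03-fold and by at most 1.14-fold. Their reads cannot be told apart, so this likeness does not show how ambiguous reads were assigned.

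Contacts among centromeres took a larger share in G2 arrested cells, and contacts among LTRs, among 5S rRNA genes and among copies of ribosomal protein genes took a smaller one. Pairs of centromere fragments rose from 378939 counts (31.4%) in G1 to 545944 (39.3%) in G2, a ratio of 1.25 (interval 1.25 to 1.26), and had 448507 counts (35.1%) in M. Pairs of LTR fragments had 45592 counts (3.78%) in G1 and 35893 (2.59%) in G2, a ratio of 0.685 (0.676 to 0.695). Pairs of protein gene fragments had 114538 counts in G1 and 101668 in G2, a ratio of 0.772 (0.766 to 0.779). Those of them that share no 50 bp stretch went the other way in sum, from 5103 counts to 7064 (1.21, 1.16 to 1.25), but only through pairs of 2 fragments without any repeated stretch, described below, and the rest of them went from 3819 to 3070 (0.700, 0.667 to 0.734). Centromere pairs that share no 50 bp stretch had 6997 counts in G1 and 8365 in G2, a smaller rise of 1.04 (1.01 to 1.07). No repeats could be found for fragments not matched to the reference genome. Pairs with such a fragment, over all classes, had 13532 counts in G1 and 16502 in G2. Pairs sharing none held 4.41% of the counts between the windows of centromeres I and II, but 0.03% between those of II and III. The 1.04 may thus rest on pairs whose sharing is unknown. As the centromere share is so large, a rise there lowers the scaled counts of all other classes. When the scale was set without pairs of centromere fragments, all ratios were 1.13 times larger, which left LTR pairs at 0.775 and protein gene pairs at 0.874, both still below 1.

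**Figure D1:**
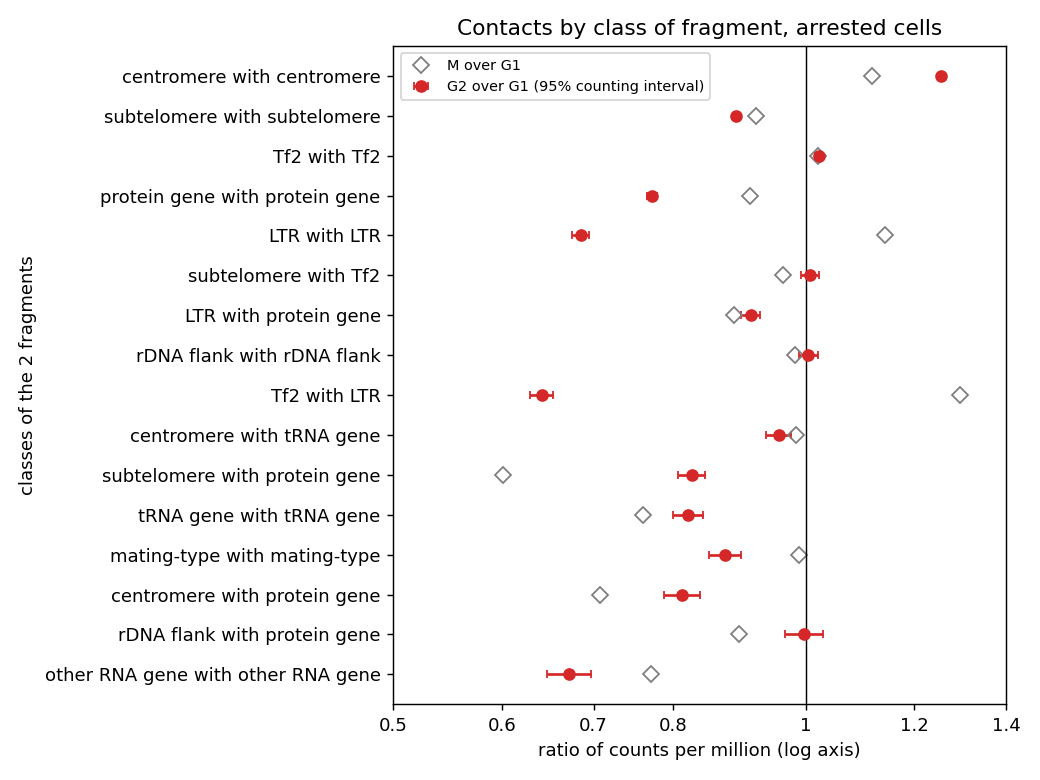
Ratio of scaled counts (x axis, log scale, no unit) for the 16 pairs of fragment classes with the most counts in G1 (y axis). Filled circles are G2 over G1 with the 95% counting interval and open diamonds are M over G1. Centromere pairs lie at 1.25, LTR pairs at 0.685 and Tf2 with LTR pairs at 0.642, while for both of the last M lies above G1.

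The rise among centromeres was seen in each combination of chromosomes. It was largest within chromosome III, where pairs of centromere fragments had 106620 counts in G1 and 167769 in G2 (ratio 1.37, 1.36 to 1.38). Between the centromeres of chromosomes II and III the ratio was 1.26 (1.25 to 1.28), between those of I and III it was 1.25 (1.24 to 1.27), and it was lowest between those of I and II, at 1.10 (1.09 to 1.11). Within chromosome I it was 1.18 and within chromosome II 1.15, so the counting intervals of III with III lay above those of the other combinations. In CPM, M lay below G2 in every combination but I with II, where it had 51070 CPM against 46830 in G2 and 42600 in G1.

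Of the 138 centromere fragments, 115 had at least 50 counts, and 109 of these were above 1 with a median ratio of 1.38, beside a median of 0.943 over all 770 fragments. Few passed the call, however. Of all 770 fragments 13 (1.69%) were at least 2-fold higher in G2 and 34 (4.42%) at least 2-fold lower, and 2 centromere fragments were among the higher ones. The 5 fragments with the largest rise in CPM were all centromere repeats. The first was a 6325 bp fragment of centromere 3 (III:1081424-1087748), which had 40011 counts in G1, 63511 in G2 and 51592 in M, a ratio of 1.38 (1.364 to 1.399). Of the others 3 were identical 4452 bp fragments of centromere 3, the first at III:1111195-1115646, with ratios of 1.42, 1.44 and 1.42. The last was on centromere 2 (II:1637609-1641956), with 35900 counts in G1 and 55267 in G2. The pair with the most counts of all lay in the repeats of centromere 2 (II:1613296-1617406 and II:1631007-1634584), and it moved little, with 14566 counts in G1 and 17407 in G2 (ratio 1.04, 1.02 to 1.06).

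**Figure D2:**
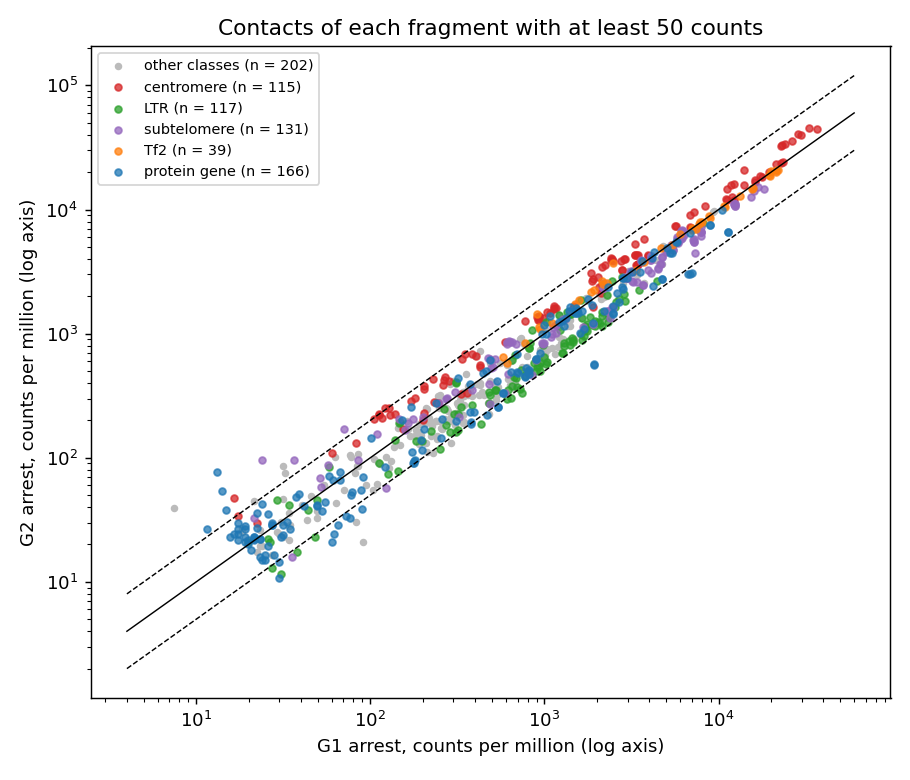
CPM of each of the 770 fragments with at least 50 counts over both phases, in G1 (x axis) and in G2 (y axis), both on log scales. Each point is 1 fragment, coloured by class, the solid line marks equal values and the dashed lines a 2-fold difference. Centromere fragments lie mostly above the solid line (109 of 115) and LTR fragments mostly below it (98 of 117).

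Among single pairs the centromeres also led the rises. Of 2994 pairs with at least 50 counts, 224 (7.48%) were at least 2-fold higher in G2 and 194 (6.48%) at least 2-fold lower. Centromere pairs gave 142 of the higher calls and none of the lower ones, from 550 pairs read, with a median ratio of 1.48 against 0.97 over all pairs. Pairs that share a fragment share its counts, so these are not independent. Of the 6 pairs with the highest ratio among those with at least 100 counts, 5 joined centromere repeats. The steepest joined chromosome I (3782649-3784537) to chromosome III (1116154-1117954) and had 20 counts in G1, 103 in G2 and 25 in M, a ratio of 4.48 (2.76 to 7.64). Next was a pair within centromere 1 (3756087-3756525 and 3777309-3779597) with 32, 136 and 40 counts. In both, G1 and M were alike and G2 stood apart.

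Subtelomere contacts, those within the last 100 kb of chromosomes I and II, were slightly lower in G2 in sum, but the direction rested on the scale. Pairs of subtelomere fragments had 272666 counts in G1 and 278655 in G2, a ratio of 0.889 (0.885 to 0.894), which became 1.01 when centromere pairs were left out of the scale. Those of them that share no 50 bp stretch had 1068 counts in G1 and 1123 in G2, a ratio of 0.915 (0.841 to 0.996), or 1.05 when the scale was also set on the pairs that share none. Single subtelomere pairs did not follow the sum. Of 258 read, 149 were above 1 and 109 below, with a median of 1.08. Called higher in G2 were 26 (10.1%, against 7.48% of all pairs), and none was called lower. Among the combinations of chromosome ends, the lowest ratio in sum was within the left end of chromosome I, at 0.754 (0.733 to 0.776). Within the left end of chromosome II it was 1.06 (1.03 to 1.09), with 9076 counts in G1, 11061 in G2 and 3944 in M. Within the subtelomere of chromosome I, a short fragment of 70 bp near the right end (5564817-5564886) went from 29 counts to 134 (ratio 4.02, 2.68 to 6.23), and a fragment of the same length near the left end (20353-20422) from 44 to 134. A pair of neighbours but for 1 fragment on the left arm (11970-12687 and 12724-14585), over the genes SPAC212.08C and SPAC212.07C, had 24 counts in G1, 89 in G2 and 7 in M. It shares no 50 bp stretch.

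LTR and Tf2 contacts parted ways. Tf2 is an intact retrotransposon, with coding sequence and 2 terminal repeats, and a solitary LTR is what recombination between the terminal repeats of a retrotransposon leaves. Which element each LTR came from was not read here. Pairs of Tf2 fragments held 12.2% of the counts in G1 and 12.5% in G2 (ratio 1.02, 1.02 to 1.03). Pairs of a Tf2 and an LTR fragment fell from 24402 counts to 17993, a ratio of 0.642 (0.629 to 0.654), and had 33480 in M. LTR pairs between chromosomes were at 0.609 (0.596 to 0.622) and those within a chromosome at 0.751 (0.737 to 0.765). M had more LTR pair counts than G1, at 55063. For LTR pairs and for Tf2 with LTR pairs, G2 was thus the lowest of the 3 phases and M the highest. This did not hold for Tf2 pairs, with 122200 CPM in G1, 125100 in G2 and 124700 in M.

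Of the 188 LTR fragments, 117 had at least 50 counts, of which 98 were below 1, beside 462 of all 770, with a median of 0.652. The class takes in arm fragments that carry genes beside an LTR, among them those with rpl302, rpl1001 and rps801. Of the 5377 counts of the rpl302 fragment in G1, 5019 joined it to rpl301. The values by LTR fragment thus overlap with those of ribosomal protein genes below. Called lower in G2 were 10 of them (8.55%, against 4.42% of all fragments), and none was called higher. Of 401 LTR pairs read, 68 (17.0%) were called lower against 6.48% of all pairs, and 1 was called higher. A pair on chromosome III (1400733-1401094 and 1582104-1582636), beside members of the wtf family of spore killer genes, had 139 counts in G1, 50 in G2 and 157 in M, a ratio of 0.313 (0.222 to 0.435). Its neighbours (1401095-1401484 and 1581338-1582103) had 164, 68 and 176. A further pair on chromosome III (2035435-2040895 and 2144895-2145186) had 183, 70 and 133. A pair of LTR fragments on chromosome II (2163365-2164372 and 2423880-2432128), whose facing ends lie 259507 bp apart and whose shared stretch is printed above, had 69 counts in G1, 17 in G2 and 72 in M, a ratio of 0.214 (0.118 to 0.369). The fall was not general to LTRs. A pair on chromosome III between the windows at 250001-300000 and 1400001-1450000 went the other way, as described with the bins. Of 105 pairs of an LTR and a protein gene fragment read, 68 were above 1 and 37 below (median 1.15), with a ratio of 0.912 in sum. Pairs of an LTR and an unannotated fragment were at 1.085 in sum (1.045 to 1.126). Pairs of an LTR with a tRNA gene fragment (0.608) or a subtelomere fragment (0.663) were lower.

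The copies of highly used housekeeping genes made up the largest falls. Fission yeast keeps many of these genes as dispersed near-identical copies (paralogs), so that their fragments share long stretches. The pair of fragments with eft201 and eft202, which both encode translation elongation factor 2, had 13478 counts in G1, 8994 in G2 and 13653 in M, a ratio of 0.581 (0.565 to 0.596). The 3 fragments with tef101, tef102 and tef103, the genes of translation elongation factor 1-alpha, formed 3 pairs. The tef103 with tef101 pair had 4242 counts in G1, 2094 in G2 and 4659 in M. The tef102 with tef103 pair had 4058, 2086 and 4538, and the tef102 with tef101 pair 3981, 2055 and 4049. Their ratios lay between 0.430 and 0.449. The fragment with gpd3 and that with tdh1, both encoding the glycolytic enzyme glyceraldehyde-3-phosphate dehydrogenase, had the lowest ratio of all pairs with at least 100 counts. They had 2292 counts in G1, 763 in G2 and 2562 in M, a ratio of 0.290 (0.267 to 0.315). Without centromere pairs in the scale this ratio was 0.328 and that of the eft201 and eft202 pair 0.657.

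Ribosomal protein gene copies moved the same way. With a ribosomal protein gene on both fragments there were 22 pairs that share sequence, 18 of them with at least 50 counts, and 16 of these were below 1, with a median of 0.609 and a range of 0.447 to 1.65. Of the 18, 3 fell at least 2-fold, against 6.48% of all pairs, and in sum the 22 pairs had 21157 counts in G1, 13941 in G2 and 20875 in M, a ratio of 0.573 (0.561 to 0.586). Other pairs of protein gene fragments that share sequence, with no ribosomal protein gene at either end, had a ratio of 0.850 (0.841 to 0.859) and a median of 0.959 over 208 pairs read. The rpl301 and rpl302 fragments, with the genes of a large subunit protein, had 5019 counts in G1, 3345 in G2 and 5130 in M. The rpl1201 and rpl1202 fragments had 2937, 1991 and 2789. The lowest were the fragments with rpl1601 and rpl1602, at 4058 and 2086, but these are also the fragments of tef103 and tef102 counted above, so both gene families share that value. The rpl802 and rpl803 fragments had 643 counts in G1 and 344 in G2 (ratio 0.466, 0.407 to 0.532), and those of rps1401 and rps1402 558 and 299 (0.466, 0.404 to 0.538). The highest ratio rested on few counts, 19 and 36 for rpl1101 with a second rpl1102 fragment, and its interval holds 1 (0.921 to 3.04). This second fragment holds no repeated 50 bp stretch, and the pair was counted as sharing sequence through a neighbour.

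**Figure D3:**
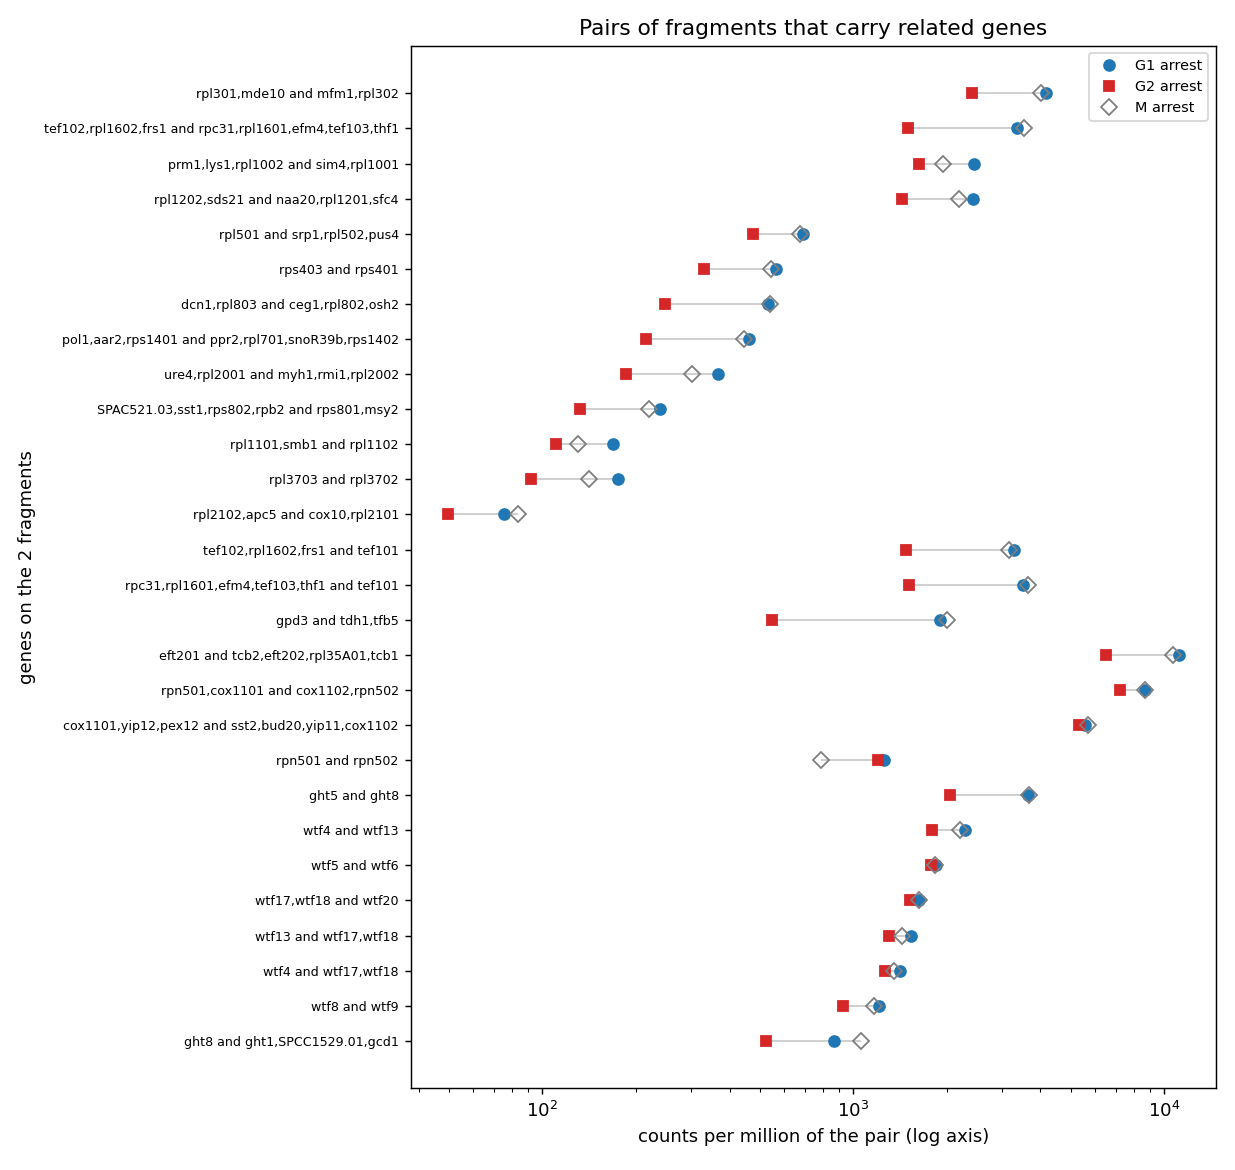
CPM (x axis, log scale) of 28 pairs of fragments that carry related genes (y axis, the genes on each fragment), in G1, G2 and M, namely ribosomal protein, ght and wtf pairs with many counts and the protein gene pairs named in the text. The pairs were chosen and do not stand for all gene pairs, and narrow gaps between G1 and G2 rest on the scale. In 27 of the 28 G2 is the lowest of the 3 phases, the exception being rpn501 with rpn502, where M is lowest (1260, 1202 and 785.6), and the gap is wide for gpd3 with tdh1 (1898, 549.8 and 2005) and narrow for wtf5 with wtf6 (1851, 1773 and 1831).

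Not every gene family moved as far. The fragments over rpn501 and cox1101 and over cox1102 and rpn502, a duplicated block with a proteasome subunit gene and a cytochrome c oxidase assembly gene, had 10454 counts in G1 and 10027 in G2 (ratio 0.835, 0.812 to 0.858), and an adjoining pair of the same block 6735 and 7383 (0.954, 0.923 to 0.986). Another pair of the block, rpn501 with rpn502, had 1521 counts in G1, 1668 in G2 and 1004 in M. Of the 44 pairs of protein gene fragments that share sequence, have no ribosomal protein gene and hold at least 500 counts, 43 were below 1, but G2 was the lowest of the 3 phases in only 30, and many wtf pairs were lowest in M. Fragments of wtf genes, taken over all pairs of 60 fragments annotated with wtf, were at 0.967 (0.957 to 0.978). The hexose transporter genes ght5 and ght8, which lie near each other on chromosome III, had 4416 counts in G1, 2850 in G2 and 4696 in M (ratio 0.562, 0.536 to 0.589). With centromere pairs left out of the scale, ratios are 1.13 times larger. This puts the adjoining pair at 0.954 and the wtf total above 1 and leaves ght5 with ght8 below it. The count of 43 below 1 thus rests on the scale. The differences between gene families have no replicates and were not tested.

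Pairs of 5S rRNA gene fragments and pairs of tRNA gene fragments fell as well. Pairs of the 29 fragments with a 5S rRNA gene had 6052 counts in G1, 4723 in G2 and 4932 in M, a ratio of 0.679 (0.654 to 0.706). In fission yeast the 5S genes stand outside the rDNA arrays, scattered over the chromosomes. The class of other RNA genes takes in these and further non-coding RNA genes. Of the 85 pairs of its fragments read, 73 were below 1 and 12 were called lower (14.1% against 6.48%). The pair on chromosome II at 464513-467384 and 520289-522092 fell from 145 to 49 counts and had 170 in M. Pairs of tRNA gene fragments had a ratio of 0.820 (0.800 to 0.841), pairs of a tRNA gene and another RNA gene fragment 0.695 (0.666 to 0.726), and pairs of a centromere and a tRNA gene fragment 0.956 (0.936 to 0.976). With centromere pairs left out of the scale, ratios are 1.13 times larger, which puts the last of these above 1 and leaves the others below it. Many tRNA genes flank the centromeres. Their fragments were counted as centromere inside the centromere coordinates and as tRNA gene just outside them.

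Of the 34 fragments called lower in G2, 17 held protein genes by their deposited annotation, of 166 such fragments read (10.2%, against 4.42% of all), and 10 were the LTR fragments above. They included gpd3 and tdh1, the 3 tef1 genes, and fragments with rpl802, rpl803, rps1401, rps1402 and rpl2002. They also included ssa1 and ssa2, which encode Hsp70 chaperones, with 79 counts in G1 and 40 in G2 for the ssa1 fragment and 88 and 47 for ssa2. Surface protein genes with internal repeats, map4 (75 and 34), pfl3 (92 and 45) and pfl5 (149 and 79), were among them too. The lowest ratio was that of a fragment at III:813184-814992, which overlaps fil1 in the RefSeq annotation and is classed as another RNA gene, with 110 counts in G1, 29 in G2 and 44 in M (0.229, 0.147 to 0.348).

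Of the 13 fragments called higher in G2, the highest ratio was that of II:1044075-1046922, over ecm14 and ubi4, the polyubiquitin gene, which holds repeated sequence. It had 16 counts in G1, 107 in G2 and 3 in M, a ratio of 5.82 (3.42 to 10.6). Of the 13, 7 had no repeated 50 bp stretch, out of 72 such fragments read (9.72%, against 1.69% of all), and 3 of the 72 were called lower. Among these 7, a 123 bp fragment within tps1 (I:3481272-3481394), which encodes a trehalose-phosphate synthase, had 9, 55 and 9 counts (ratio 5.32), and 30 of the G2 counts joined it to a fragment over gle1 on chromosome II (247434-248511), against 4 in G1 and 6 in M. Neighbouring fragments over cti1 on chromosome III (2041782-2044394 and 2041448-2041765) had 17 and 75 counts, and 18 and 53.

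Pairs in which neither fragment has any repeated 50 bp stretch were a small class, and they were far more numerous in G2. They held 2569 counts (0.213%) in G1, 8148 (0.587%) in G2 and 3328 (0.26%) in M, a G2 over G1 ratio of 2.76 (2.64 to 2.89). Other pairs that share no 50 bp stretch, in which 1 or both fragments hold repeated sequence or were not matched to the reference, went down, at 0.769 (0.759 to 0.779). The number of different repeat-free pairs was 1913 in G1, 4585 in G2 and 2790 in M. Those with at least 3 counts numbered 111, 764 and 83, and those with 1 count 1550, 2857 and 2471. Of the 2672 pairs by which G2 exceeded G1, 1307 were of pairs with 1 count and 653 of pairs with at least 3, a 1.84-fold and a 6.88-fold difference in number. Of the pairs found in G1, 1084 (56.7%) were also found in G2, and they made up 23.6% of those found in G2.

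**Figure D4:**
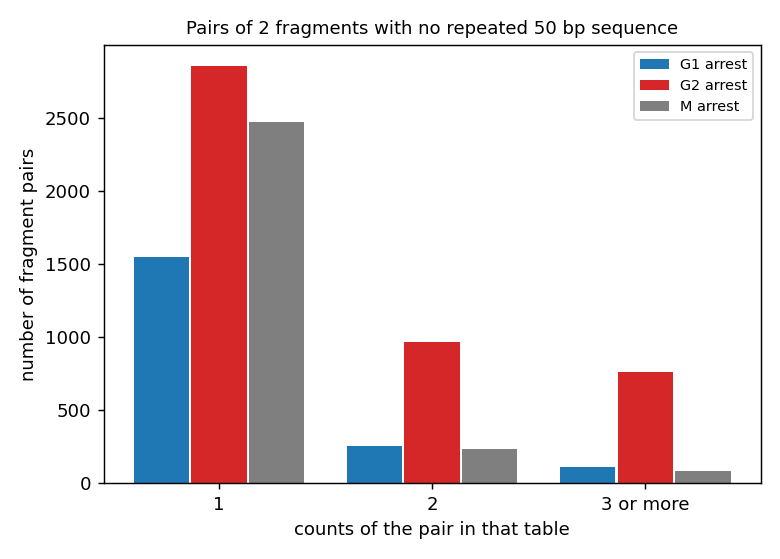
Number of pairs of 2 repeat-free fragments (y axis) by the number of counts of the pair in that table (x axis), for G1, G2 and M. G2 has 2857 pairs with 1 count, 964 with 2 and 764 with 3 or more, against 1550, 252 and 111 in G1.

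The gain in repeat-free pairs was spread over classes. Pairs of protein gene fragments went from 1284 counts to 3994 (ratio 2.71, 2.54 to 2.89), pairs of a protein gene and an unannotated fragment from 611 to 2168 (3.09, 2.82 to 3.38), and pairs of a subtelomere and a protein gene fragment from 114 to 405, with 452 in M. The table lists mainly pairs with repeated sequence, and what brought these few into it is not given in the sources used here. The 6 pairs with the most counts had 27 to 55 counts each over both phases. The leading one joined the fragments of rpl1701 and rpl1702, which differ enough to share no 50 bp stretch (27 counts in G1, 28 in G2 and 10 in M), and the interval of its ratio was 0.513 to 1.59. Only the tps1 with gle1 pair had an interval above 1 among these 6, with a ratio of 6.53 (2.30 to 25.5).

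By chromosome, contacts within III and between II and III were higher in G2, with ratios of 1.14 (1.14 to 1.15) and 1.13 (1.12 to 1.13). Those within I and between I and II were lower, both at 0.92, and I with III was at 1.00 (0.993 to 1.01). With centromere pairs left out of the scale, those of I with I and I with II became 1.04 and the highest was III with III at 1.29. That scale leaves centromere pairs in the totals. Within III they held 106620 of 224442 counts in G1 and 167769 of 294258 in G2. Between II and III they held 93551 of 143734 and 135993 of 186022. The rises by chromosome are therefore not separate from the centromere rise. Intrachromosomal pairs held 50.01% of the counts in G1 and 50.7% in G2, a difference of 0.664 percentage points, against 48.4% in M. Among pairs that share no sequence the shares were 32.5% and 33.4%. The balance of contacts within and between chromosomes was thus nearly level, while the distances were not. The share of intrachromosomal counts at 5 to 50 kb rose from 29.7% to 34.5%, and that at over 500 kb fell from 48.5% to 43.6%. Pairs within 1 centromere are counted in these shares, and all of them lie closer than 500 kb. Their rise is thus part of this shift, and the part they make up was not separated. Among pairs that share no sequence, the band at 5 to 50 kb held 2.66% in G1 and 2.38% in G2, with overlapping intervals (2.42 to 2.92 and 2.16 to 2.62), and it was the band under 5 kb that rose, from 5.74% to 11.2%. That rise was not seen among pairs of 2 repeat-free fragments, where the band under 5 kb held 9.07% in G1 (7.32 to 11.1), 8.28% in G2 (7.34 to 9.30) and 7.63% in M.

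**Figure D5:**
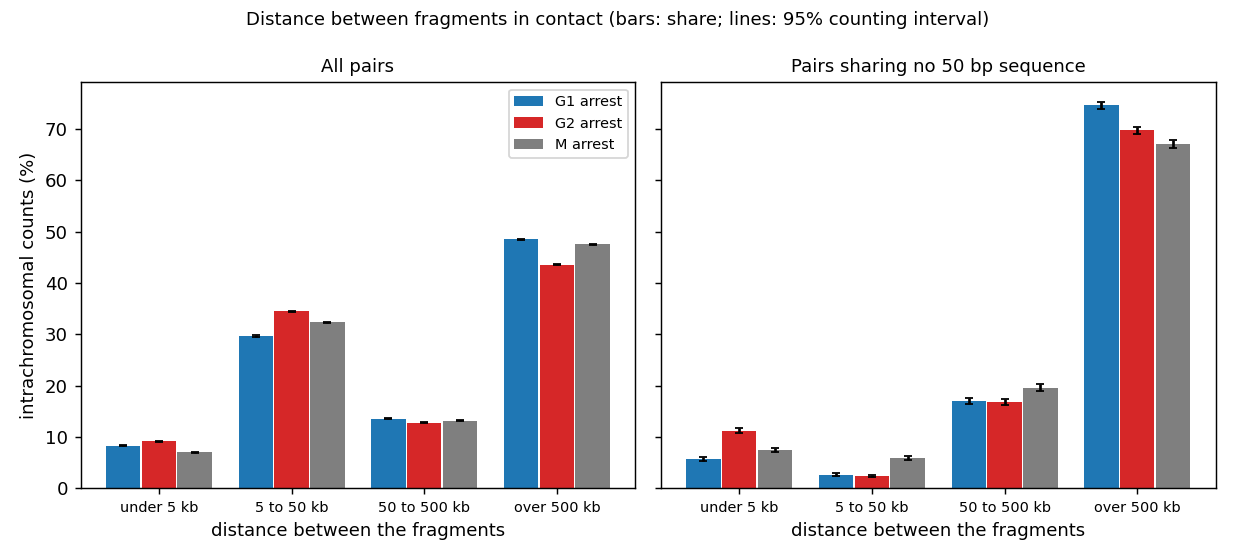
Share of intrachromosomal counts (y axis, percent) by the distance between facing fragment ends (x axis), for G1, G2 and M, with 95% counting intervals. On the left are all pairs, where 5 to 50 kb rises from 29.7% to 34.5% in G2, and on the right the pairs that share no 50 bp stretch, where only the band under 5 kb is higher in G2 than in both G1 and M (11.2% against 5.74% and 7.44%).

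In windows of 50 kb, 1460 pairs of windows had at least 50 counts, of which 188 (12.9%) were called lower in G2 and 5 (0.342%) higher. The 10 pairs of windows in which both hold centromere fragments were all above 1, with a median of 1.25 and no call, and 16 of 19 pairs of subtelomere windows were below 1, at a median of 0.897, so their side of 1 depends on the scale as above. Pairs with 1 centromere window numbered 85, with 1 call in each direction and a median of 0.922, and 60 further pairs had 1 subtelomere window, with 10 called lower and a median of 0.715. Most of the calls were among the 1286 pairs with neither, of which 1108 were below 1 and 177 were called lower, with a median of 0.688. Among window pairs with at least 100 counts over both phases, the lowest was that of the gpd3 and tdh1 fragments, which held all but 1 of its 2293 counts in G1. Next came windows on chromosomes I (5150001-5200000) and III (2200001-2250000), with 94 counts in G1, 35 in G2 and 116 in M, led by a Tf2 fragment and an LTR fragment, and then the window pair at 700001-750000 and 800001-850000 on chromosome II, with 90, 38 and 94, led by 2 LTR fragments. The highest of those with at least 100 counts was on chromosome III, between the windows at 250001-300000 and 1400001-1450000, with 71 counts in G1, 178 in G2 and 54 in M (ratio 2.18, 1.65 to 2.92). It was led by a pair of LTR fragments (298302-298786 and 1401095-1401484) with 39 counts in G1 and 94 in G2, and the second of these is the fragment that fell against its other LTR partner above. The window pair at 600001-650000 and 2150001-2200000, also on chromosome III and led by a wtf10 and an LTR fragment, had 70, 146 and 29 counts.

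The cell cycle genes that respond to these arrests sat on fragments with few counts. Cdc10 acts through MBF, and the 12 MBF target genes listed, which include cdc18, cdc22 and cig2, lay on 38 fragments, none with 50 counts, that had 208 counts in G1 and 193 in G2 in all (ratio 0.807, 0.660 to 0.987). This is near the ratio of pairs that share no sequence but are not repeat-free, 0.769. Of the 10 with at least 20 counts, all had intervals that hold 1, from 0.514 for mrc1, a replication checkpoint gene, to 1.43 for cdt2. Among 8 genes of the G2 to M forkhead group, slp1, an activator of the anaphase-promoting complex, had 12 counts in G1 and 34 in G2 (ratio 2.47, 1.25 to 5.23), and spo12 161 and 114 (0.616, 0.480 to 0.788), on fragments of which 1 holds repeated sequence. Of the histone genes, hhf1 had 20 and 4 counts (0.174, 0.0433 to 0.520) and the other 7 with enough counts had intervals that hold 1. The arrest genes themselves were not set apart, with 13 and 19 counts for cdc10 and 23 and 43 for cdc25 (1.63, 0.959 to 2.83). Over these lists, 6 of 37 genes had an interval without 1, and the intervals were not adjusted for their number. The remaining ones were heat shock genes, hsp90 (1457 and 1293 counts), ssa1 (83 and 43) and ssa2 (106 and 71), all lower in G2 and each with 1 fragment that holds repeated sequence. The hsp90 fragment is classed as another RNA gene, so its value overlaps with that class above. Only 42 of its counts over both phases were of pairs that share no 50 bp stretch. Of 83 ribosomal protein genes with at least 20 counts, 34 had an interval below 1 and none above it, beside 14.5% and 3.74% of all 3740 protein genes with as many counts. These 34 are not separate, and some share their fragment with other repeats. The genes rpl701 and rps1402 lie on the same fragment (577 and 315 counts). The fragment of rpl35A01 is that of eft202, and those of rpl1601 and rpl1602 are those of tef103 and tef102. The rpl4102 fragment is classed as LTR and that of rpl4301 as tRNA gene. All 34 were among the 39 with a fragment that holds repeated sequence, and none was among the 44 without one. Over all protein genes, 70.8% of the 614 with such a fragment had an interval below 1, against 3.42% of the 3126 without. Of the ribosomal protein genes' 43 fragments with at least 50 counts, which include those of eft202, tef102 and tef103, 9 were called lower and none higher, beside 4.42% and 1.69% of all fragments.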

How the data were processed

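GCC libraries of 2 biological replicates per phase were sequenced as 50 bp paired ends and positioned by the authors on the ASM294v2 genome (per the labels). The deposited counts are whole numbers of read pairs per fragment pair, pooled over both replicates, with no normalization. The table used holds ends placed on repeated sequence, and how such ends were assigned is not given in the sources used here. No column of per-sample values was left unused (0).

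Classes went by position, then by the deposited annotation: centromere, subtelomere, mating-type region, the 100 kb beside the rDNA, Tf2, LTR, tRNA gene, other RNA gene, protein gene and none. Fragments were matched to the RefSeq genome by their AseI ends (9462 of 9464), from which shared stretches and gene names were taken. Of chromosome I, 1354 fragments lay at shifted positions, and their coordinates are those of the deposited tables. Ratios carry exact (Clopper-Pearson) 95% intervals, conditional on the sum of both counts, and PCR copies count as separate reads. The calls and intervals were tested on simulated data. Scripts ran in Python 3.11.15 with scipy.

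Named items were: the 6 fragments and 6 pairs with the highest and lowest ratio among those with at least 100 counts (1 CPM added), the 5 with the largest CPM change, the 5 highest and lowest window pairs with at least 100 counts, the 6 repeat-free pairs with the most counts, list genes with at least 20 counts and 1 LTR pair of chromosome II. Ribosomal protein, tef, ght, wtf, cox11 and rpn5 pairs were named after their values were seen. Members and gene lists were chosen with earlier results of these data known.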

Additional observations from a re-analysis of the deposited data

How the results depend on the processing

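No paired analysis was possible because each table pools both biological replicates, and for the same reason no replicate could be left out. Intrachromosomal shares of G1 and G2 moved together: 36.9% and 38.5% over repeat-free fragments, 32.5% and 33.4% without pairs that share sequence, 35.9% and 36.1% with each pair counted once, 50.5% and 51.1% over pairs with at least 3 counts, and 67.7% and 66.8% with the rDNA kept, where G1 was the higher. With repeats defined at 25 bp, repeat-free pairs held 0.174% in G1 and 0.487% in G2. Without pairs that share sequence, the distance shares of G1 and G2 were 5.74% and 11.2% under 5 kb, 2.66% and 2.38% at 5 to 50 kb, 17.0% and 16.8% at 50 to 500 kb and 74.6% and 69.7% beyond.

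With the rDNA in the scale (a shift of 0.11 in log2), the ratios of centromere, subtelomere, LTR and protein gene pairs were 1.35, 0.957, 0.737 and 0.831. With the median fragment ratio set to 1 they were 1.33, 0.943, 0.726 and 0.819, and without centromere pairs in the scale, an alternative chosen after seeing the data (a shift of 0.18), 1.42, 1.01, 0.775 and 0.874. Without pairs that share sequence they were 1.04, 0.915, 0.480 and 1.205 on the scale of all kept pairs (chosen after seeing the data) and 1.197, 1.05, 0.553 and 1.39 with the scale set on the remaining pairs, and as numbers of different pairs 1.11, 0.982, 0.929 and 1.23. Over pairs with at least 3 counts they were 1.24 for centromere, 0.883 for subtelomere and 0.760 for protein gene pairs, and without the 10 largest pairs 1.26 for centromere and 0.788 for protein gene pairs. The cause of the reversals was not tested, and centromere values without shared sequence carry the limit of unmatched fragments given above. Counted over pair ends, classes near 1 changed side: rDNA flank to 1.05 (rDNA in the scale), 1.04 (median), 1.06 (no shared sequence, rescaled), 1.02 (number of pairs) and 1.11 (no centromere pairs), Tf2 to 1.07, 1.05 and 1.12 under the scalings, subtelomere to 1.01, tRNA gene to 1.03 and other RNA gene to 1.02 by number of pairs, protein gene to 1.06 without shared sequence (rescaled), centromere to 0.933 without shared sequence on the kept scale, and protein gene to 1.04 by number of pairs.

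Fragments called higher and lower were 128 and 100 at a minimum of 20 counts, 2 and 19 at 200, 57 and 164 at 1.5-fold, 4 and 3 at 3-fold, 21 and 20 with the rDNA in the scale, 20 and 25 with the median ratio set to 1, and 27 and 13 without centromere pairs in the scale, so which direction had more calls rested on the scale. Window pairs called higher and lower were 38 and 613 at 20 counts, 1 and 10 at 200, 2 and 166 with 100 kb windows, 14 and 2 without pairs that share sequence (rescaled), where only 64 could be read, and 7 and 93 without centromere pairs in the scale. Pairs called higher and lower were 309 and 93 on that scale and 255 and 146 with the median ratio set to 1. Ribosomal protein gene pairs kept a ratio below 1, at 0.617, 0.608 and 0.649 under the 3 scalings. At this depth 8124 fragments had 1 to 49 counts over both phases and were not read for differences.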

Other observations

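Pairs of fragments in the 100 kb beside the rDNA had 27998 counts in G1 and 32316 in G2, a ratio of 1.00 (0.988 to 1.02). The pair with the most counts among them joins both ends of chromosome III (27401-30080 and 2434032-2436711), with 8205 counts in G1, 9613 in G2 and 8572 in M. Pairs within the mating-type region, which holds the active and silent mating-type cassettes, had 10692 counts in G1 and 10728 in G2, a ratio of 0.873 (0.850 to 0.897).

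Between classes, pairs of a centromere and an unannotated fragment held 14 calls higher in G2 among 34 read (41.2%, against 7.48% of all pairs), with a median ratio of 1.68, and no call lower. The centromere class ends at set coordinates, and unannotated fragments just outside them are in this group. It may therefore not be separate from the centromere rise. On either side of the rDNA, the 16 bp fragments at III:27097-27112 and III:2437000-2437015 had 38 and 118 counts and 39 and 104 counts in G1 and G2.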
